A study of Mus musculus with 9 samples.

Results

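Gsx2, Egfr, Olig1 and Olig2 are regulators of the multipotent intermediate progenitors that follow radial glia late in cortical development, and they were followed by symbol in the 2 deposited expression tables, over all 9 libraries. All 4 genes were present in both tables, of 22496 genes in one and 23624 in the other. Each of them passed the expression filter of every comparison. Late in cortical neurogenesis, radial glia stop producing pyramidal neurons and pass through dividing intermediate cells that give rise to oligodendrocytes, astrocytes and olfactory bulb interneurons. Gsx2 encodes a homeodomain transcription factor best known from the lateral ganglionic eminence of the ventral telencephalon. Egfr encodes the epidermal growth factor receptor, a tyrosine kinase that marks transit-amplifying progenitors and signals through RAS and ERK. Olig1 and Olig2 encode a pair of basic helix-loop-helix factors of the oligodendrocyte lineage, and Olig2 is also present in progenitors that have not chosen a fate.

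The libraries were made from total RNA of dissected cortex at postnatal day 0, from mice on a mixed C57BL/6J, 129S6 and CD1 background. The study asked how sonic hedgehog (SHH) acts on the lineage of cortical neural stem cells. Of the 9 libraries, 3 were labelled ShhN IUE, 3 SmoM2 and 3 wild-type littermate. IUE is the field's abbreviation for in utero electroporation, which delivers DNA into a patch of the ventricular wall, and ShhN is the signalling N-terminal part of SHH. SmoM2 mice were hGFAP-Cre, SmoM2f/+: the human GFAP promoter drives Cre in radial glia and switches on an activated form of Smoothened, the transducer of SHH. An electroporated group lacking ShhN is not among these samples. The labels do not say whether the libraries of a group came from separate animals, and all p-values rest on the spread among these libraries, which may be technical. Total counts were 15376071 to 19604672 in ShhN IUE libraries, 23625702 to 26923127 in SmoM2 libraries, and 18610507 to 21694348 in wild-type libraries as counted in the ShhN IUE table.

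Gsx2 (ENSMUSG00000035946) lies on the plus strand of chromosome 5, at 75075601 to 75077893 in the build named in the labels (GRCm38, mm10). Egfr (ENSMUSG00000020122) spans 16752203 to 16918158 on the plus strand of chromosome 11. Olig1 (ENSMUSG00000046160) is a single-exon gene at 91269772 to 91271933 of chromosome 16, and Olig2 (ENSMUSG00000039830) lies 41.1 kb before it at 91225550 to 91228677, both on the plus strand. In the GENCODE annotation, antisense Egfros overlaps Egfr and the non-coding Gm15966 overlaps Olig1. The sources used here do not say whether counting used strand, and reads of these partners may be included. The stretches before the annotated gene starts are shown because the 4 genes were higher together in SmoM2 cortex, as described below. Sequences are from RefSeq on GRCm38.p6, where 3 of the 4 genes had an entry, and capitals mark matches on either strand to the motifs named after them.
Gsx2, chr5:75075351-75075600, plus strand: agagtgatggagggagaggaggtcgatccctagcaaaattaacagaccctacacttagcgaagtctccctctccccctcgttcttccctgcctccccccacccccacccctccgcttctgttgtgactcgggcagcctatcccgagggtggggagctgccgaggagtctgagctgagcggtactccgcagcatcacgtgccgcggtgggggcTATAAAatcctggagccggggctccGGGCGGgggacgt
Egfr, chr11:16751953-16752202, plus strand: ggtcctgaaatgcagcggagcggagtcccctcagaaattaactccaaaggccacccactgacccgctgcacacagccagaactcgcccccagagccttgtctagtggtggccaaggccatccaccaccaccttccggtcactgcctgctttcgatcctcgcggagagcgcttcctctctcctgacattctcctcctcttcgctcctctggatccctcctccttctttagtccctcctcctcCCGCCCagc
Olig2, chr16:91225300-91225456, plus strand: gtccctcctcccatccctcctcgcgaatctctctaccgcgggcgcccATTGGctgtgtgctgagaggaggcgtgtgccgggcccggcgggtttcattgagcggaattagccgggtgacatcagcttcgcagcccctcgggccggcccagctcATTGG
Gsx2 held TATAAA 38 bases and the GC box GGGCGG 13 bases before its start. Egfr held the GC box 9 bases before its start, on the minus strand. Olig2 held CCAAT, on the minus strand, 203 and 98 bases before its RefSeq start, which lies inside the GENCODE gene. Past the stretch shown it held GGGCGG 60 and 53 bases and TATAAA 8 bases before that start. Over the 250 bases before each of 32851 RefSeq starts, TATAAA stood in 12.4%, CCAAT in 33.8% and GGGCGG in 32.7%. The GLI motif GACCACCCA, which stood in 0.225% of them, was not in these windows of the 3 genes, nor were the homeodomain core TAATTA (4.84%) and the E-box CAGCTG (13.0%). The windows of Gsx2, Egfr and Olig2 held 16, 11 and 22 CpG pairs, against a median of 6 over all starts.

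Per length, Olig1 was the most abundant of the 4 genes in every group and Olig2 came next. In the authors' FPKM (fragments scaled for gene length and depth), Olig1 averaged 58.6 ± 4.01 in ShhN IUE cortex, 73.4 ± 8.72 in SmoM2 cortex and 37.9 ± 4.17 in wild-type cortex (SD, n = 3 each). Olig2 averaged 28.2 ± 5.99 FPKM in ShhN IUE, 37.4 ± 4.75 in SmoM2 and 14.9 ± 2.61 in wild type. Egfr stood at 4.39 ± 0.80 FPKM in ShhN IUE, 5.84 ± 0.49 in SmoM2 and 3.21 ± 0.50 in wild type. Gsx2 was the scarcest, at 3.38 ± 0.33 FPKM in ShhN IUE, 1.79 ± 0.15 in SmoM2 and 0.61 ± 0.17 in wild type. Egfr and Gsx2 were closest in ShhN IUE cortex, where the 3 Egfr values began at 3.88 FPKM and the 3 Gsx2 values ended at 3.75 FPKM. Their order there depends on the length used. The FPKM imply 12274 bases for Egfr and 2847 for Gsx2, and with the longest GENCODE transcripts, of 10208 and 1665 bases, Gsx2 would stand at 5.79 ± 0.56 and Egfr at 5.27 ± 0.97 in ShhN IUE cortex, within their spread.

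In ShhN IUE cortex, Gsx2 rose most of the 4 genes, Olig2 and Olig1 rose less, and Egfr did not pass the test. Of all genes tested in this comparison, 33.3% were called at an adjusted p under 0.05, 16.1% were called higher, and 49.4% had groups that did not overlap. Gsx2 had 184, 149 and 164 reads in the ShhN IUE libraries, against 24, 41 and 40 in the wild-type libraries. On the scale of counts per 1000000 after TMM scaling (CPM), these are 9.35, 8.84 and 10.3 in ShhN IUE and 1.25, 1.86 and 2.20 in wild type. The groups were far apart, with an SD of 0.72 CPM in ShhN IUE and 0.48 CPM in wild type. Gsx2 was 5.35-fold higher, a log2 fold change of 2.42 ± 0.26 (SE; 95% interval 1.82 to 3.02; edgeR adjusted p = 0.00099). In such bulk tissue, more cells with the transcript and more transcript per cell cannot be told apart.

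Olig2 had 59.5, 60.9 and 82.4 CPM in ShhN IUE cortex, against 30.2, 38.7 and 41.5 CPM in wild type. Library 3 of ShhN IUE stood above the other two, and all 3 stood above wild type. Its log2 fold change was 0.88 ± 0.18 (SE), or 1.84-fold (edgeR adjusted p = 0.0079). Olig1 had 116.5, 129.1 and 128.7 CPM in ShhN IUE cortex, against 94.0, 82.3 and 74.0 CPM in wild type. Those groups did not overlap either, and the log2 fold change was 0.58 ± 0.11 (SE), or 1.50-fold (edgeR adjusted p = 0.0076). Egfr had 47.5, 48.6 and 62.8 CPM in ShhN IUE cortex, against 33.6, 41.9 and 44.4 CPM in wild type. All 3 ShhN IUE libraries were above all wild-type ones, but the gap between the nearest libraries was small. With a log2 fold change of 0.41 ± 0.16 (SE; 95% interval 0.04 to 0.77), Egfr missed the threshold (edgeR adjusted p = 0.081). So 3 of the 4 genes were called, all higher. The authors' deposited table gives q = 1.79e-09 for Gsx2 in this comparison, with the direction UP. For Olig2, Olig1 and Egfr the authors' deposited table gives q = 0.000347, 0.00582 and 0.135 with no direction.

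**Figure D1:**
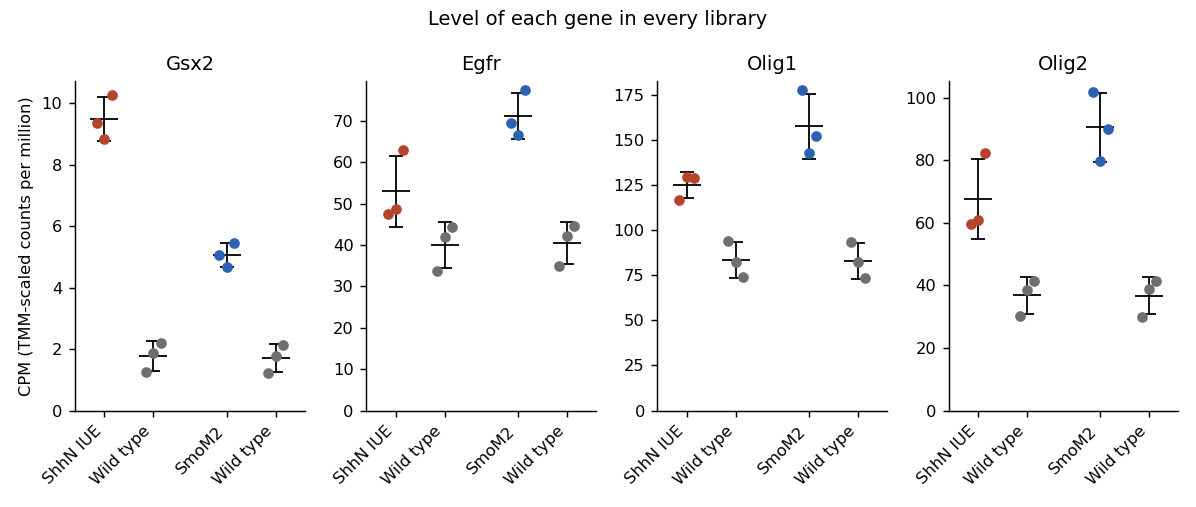
CPM of Gsx2, Egfr, Olig1 and Olig2 in each library, with the wild-type libraries beside each group as counted in that group's own table; points are libraries, the horizontal bar is the mean and the whiskers are 1 SD. All ShhN IUE and SmoM2 points lie above all wild-type points, and Gsx2 is the gene with its higher mean in ShhN IUE (9.49 CPM) than in SmoM2 (5.06 CPM).

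In SmoM2 cortex all 4 genes rose, with Gsx2 and Olig2 changing most. Of all genes tested there, 18.9% were called, 9.59% were called higher, and 40.1% had groups that did not overlap. Gsx2 had 138, 110 and 142 reads in SmoM2 libraries and 24, 39 and 39 in wild type, or 5.06, 4.66 and 5.45 CPM in SmoM2 against 1.24, 1.77 and 2.13 CPM in wild type. It was 2.95-fold higher, with a log2 fold change of 1.56 ± 0.24 (SE; 95% interval 1.00 to 2.12; edgeR adjusted p = 0.0044). Olig2 had 101.7, 79.8 and 89.9 CPM in SmoM2 cortex, against 30.1, 38.7 and 41.4 CPM in wild type. The lowest SmoM2 library was well above the highest wild-type one, and the log2 fold change was 1.30 ± 0.15 (SE), or 2.46-fold (edgeR adjusted p = 0.0011).

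Olig1 had 177.3, 142.9 and 151.8 CPM in SmoM2 cortex, against 93.4, 82.4 and 73.5 CPM in wild type. Its log2 fold change was 0.92 ± 0.12 (SE), or 1.89-fold (edgeR adjusted p = 0.0022). Egfr had 69.3, 66.6 and 77.4 CPM in SmoM2 cortex, against 34.9, 42.2 and 44.6 CPM in wild type, groups that lie further apart than in ShhN IUE. Egfr had a log2 fold change of 0.81 ± 0.12 (SE), or 1.75-fold (edgeR adjusted p = 0.0034). For SmoM2 the authors' deposited table gives q = 9.8e-13 for Olig2 and 1.69e-05 for Gsx2, both UP. The authors' deposited table gives q = 1.4e-07 for Olig1 and 6.72e-06 for Egfr with no direction. Both comparisons use the same wild-type libraries, so their calls are not independent. Among those libraries, replicate 1 was the lowest for Gsx2, Egfr and Olig2 and the highest for Olig1.

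Set directly against each other, SmoM2 and ShhN IUE cortex differed in Gsx2. This comparison used all 9 libraries over the 16195 genes whose wild-type counts agreed between the tables, and CPM in it are relative to those genes. Of the genes tested there, 16.5% were called, 8.07% were called lower in SmoM2, and 41.0% had groups that did not overlap. Gsx2 averaged 7.67 ± 0.59 CPM in SmoM2 and 14.5 ± 1.02 CPM in ShhN IUE (SD, n = 3 each). No SmoM2 library reached a ShhN IUE library, and the log2 fold change was -0.92 ± 0.21 (SE; 95% interval -1.37 to -0.46; edgeR adjusted p = 0.014). The call missed the threshold without ShhN IUE library 1, SmoM2 library 1 or SmoM2 library 2, where the log2 fold change was -0.92 to -0.86 and the adjusted p 0.052 to 0.068. Egfr averaged 107.9 ± 8.36 CPM in SmoM2 and 80.9 ± 12.4 CPM in ShhN IUE. For Egfr the log2 difference was 0.42 ± 0.13 (SE; 95% interval 0.12 to 0.71; edgeR adjusted p = 0.058), and it passed when library 3 of ShhN IUE (0.55) or library 1 of wild type (0.43) was left out. Olig1 gave 0.32 ± 0.11 (SE; 95% interval 0.08 to 0.57; edgeR adjusted p = 0.068), and passed without wild-type library 1 (0.34). Olig2 gave 0.41 ± 0.16 (SE; 95% interval 0.06 to 0.76; edgeR adjusted p = 0.097), and without ShhN IUE library 3 it passed, at 0.57 with an adjusted p of 0.030. Egfr and Olig1 also passed in some fits, which are given with the processing below. Only Gsx2 of the 4 genes was called, and it was lower in SmoM2, while the intervals of the other 3 lay above 0.

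**Figure D2:**
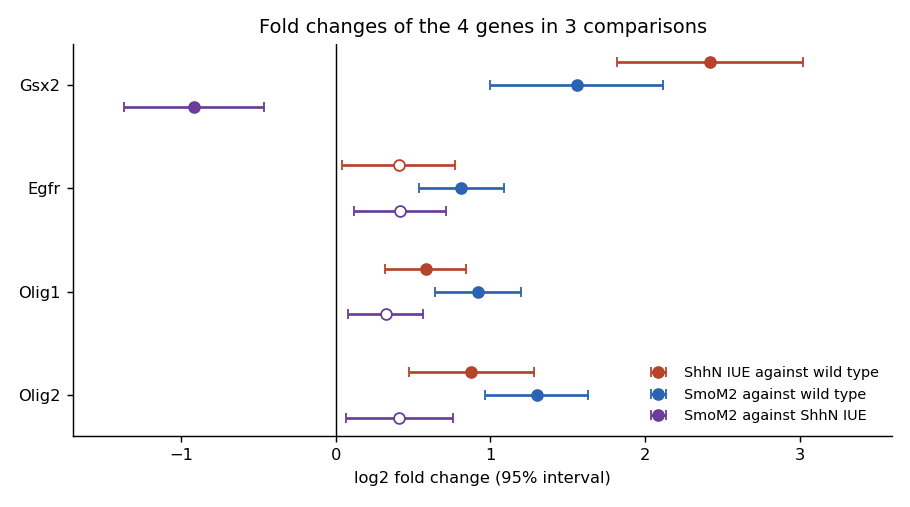
Log2 fold change of Gsx2, Egfr, Olig1 and Olig2 with its 95% interval in ShhN IUE against wild type, SmoM2 against wild type and SmoM2 against ShhN IUE; filled points passed the threshold of adjusted p 0.05 and open points did not. Gsx2 is the gene below 0 in SmoM2 against ShhN IUE (-0.92), and Egfr is the gene with an open point against wild type (0.41 in ShhN IUE).

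Ratios of read counts within a library, which need no scaling between libraries, show how the genes moved against each other. With 3 libraries against 3, the smallest exact two-sided permutation p is 0.1, so no ratio could pass 0.05, and over the 8 ratio comparisons raw p-values of 0.1 and 0.2 become 0.267 after Benjamini-Hochberg adjustment, 0.3 becomes 0.343 and 0.4 stays at 0.4. Gsx2 to Olig2 was 0.157, 0.145 and 0.125 in ShhN IUE libraries, against 0.0412, 0.0482 and 0.0529 in wild type. The groups were far apart (mean 0.142 ± 0.017 for ShhN IUE, 0.0474 ± 0.0059 for wild type; SD, n = 3; exact permutation p = 0.1). In SmoM2 libraries the ratio was 0.0498, 0.0584 and 0.0606, against 0.0412, 0.0458 and 0.0516 in wild type, and these groups overlapped (exact permutation p = 0.2). Olig1 to Olig2 averaged 1.88 ± 0.29 in ShhN IUE, against 2.34 ± 0.69 in wild type (SD, n = 3; exact permutation p = 0.4). In SmoM2 it averaged 1.74 ± 0.05, against 2.34 ± 0.69 in wild type (SD, n = 3; exact permutation p = 0.2). The wide spread in wild type came from library 1, at 3.11, while the other two stood at 2.13 and 1.78. Olig2 to Pdgfra, a receptor of oligodendrocyte precursors, averaged 0.540 ± 0.067 in ShhN IUE and 0.381 ± 0.070 in wild type, without overlap (SD, n = 3; exact permutation p = 0.1). The same ratio averaged 0.655 ± 0.087 in SmoM2 and 0.377 ± 0.068 in wild type, again without overlap (SD, n = 3; exact permutation p = 0.1). Olig2 to Sox10, a factor of committed oligodendrocyte cells, averaged 2.07 ± 0.33 in ShhN IUE and 2.40 ± 0.31 in wild type, and 2.84 ± 0.23 in SmoM2 against 2.40 ± 0.31 in wild type. Those groups overlapped in both comparisons (exact permutation p = 0.3 and 0.2).

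**Figure D3:**
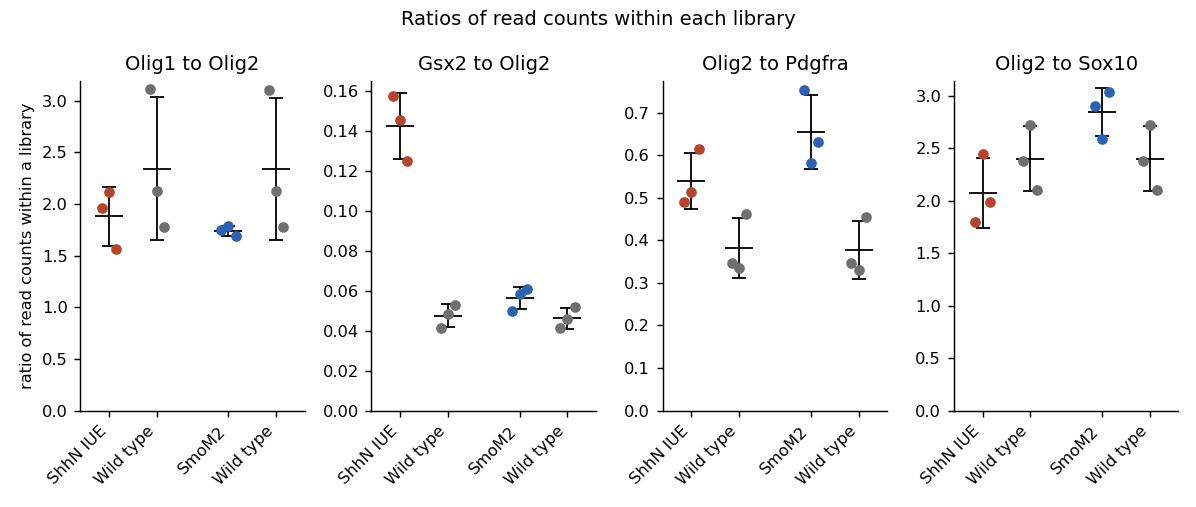
Ratios of read counts within each library for 4 pairs of genes, in ShhN IUE, SmoM2 and the wild-type libraries of the same table; points are libraries, the bar is the mean and the whiskers are 1 SD. Gsx2 to Olig2 stands apart in ShhN IUE (0.125 to 0.157), and Olig2 to Pdgfra is above wild type in both groups.

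Around the 4 genes, factors of transit-amplifying progenitors mostly rose. This list holds Gsx1, Dlx1, Dlx2, the Notch ligands Dll1 and Dll3, and other genes of newly committed progenitors, 11 in all. In ShhN IUE cortex 10 of 11 rose and 0 fell, with a median log2 fold change of 1.32 against -0.004 over all genes. In SmoM2 cortex 7 of 11 rose and 0 fell, with a median of 0.89 against -0.007 over all genes. The shares called were 90.9% in ShhN IUE, against 33.3% of all genes, and 63.6% in SmoM2, against 18.9% of all genes. Dlx2, a homeodomain factor of interneuron progenitors, had a log2 fold change of 1.53 ± 0.14 in ShhN IUE and 1.66 ± 0.11 in SmoM2 (SE; edgeR adjusted p = 0.00071 and 0.00016). Mfng, a modifier of Notch receptors, rose by 2.28 ± 0.16 in ShhN IUE and by 1.77 ± 0.16 in SmoM2. Gsx1, the close relative of Gsx2, rose by 1.97 ± 0.29 in SmoM2 (edgeR adjusted p = 0.0033). In ShhN IUE it rose by 1.32 ± 0.33 (edgeR adjusted p = 0.018), a call that missed the threshold when library 3 of ShhN IUE or of wild type was left out (adjusted p = 0.052 to 0.057). Dll3 rose in SmoM2 by 0.89 ± 0.20, with an adjusted p of 0.068 when SmoM2 library 1 was left out. Hes6 rose in ShhN IUE by 0.53 ± 0.16, with adjusted p between 0.059 and 0.11 when any of the ShhN IUE libraries, or 2 or 3 of wild type, was left out.

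Of the 9 genes of the list tested between SmoM2 and ShhN IUE, 0 were higher and 3 lower, among them Btg2 (-0.68 ± 0.18) and Mfng (-0.54 ± 0.15). The share called was 33.3%, against 16.5% of all genes. Btg2, an antiproliferative gene of neurogenic divisions, missed the threshold without ShhN IUE library 1 or 3 or any SmoM2 library (adjusted p = 0.059 to 0.11). Mfng missed it without ShhN IUE library 1 or 3 or SmoM2 library 1 or 2 (adjusted p = 0.086 to 0.13).

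Ligands of EGFR and its relatives fell or did not pass the test. Of 11 EGF family ligands 7 were tested, and in each comparison with wild type 0 rose and the same 3 genes fell: Tgfa, Hbegf and Nrg3. That is 42.9% of the tested ligands, against 33.3% of all genes called in ShhN IUE and 18.9% in SmoM2. Of all genes, 17.2% were called lower in ShhN IUE and 9.29% in SmoM2. The median log2 fold change of the tested ligands was -0.57 in ShhN IUE and -0.54 in SmoM2. Tgfa, transforming growth factor alpha, a ligand of EGFR, had 21.2, 18.8 and 22.2 CPM in ShhN IUE cortex, against 83.1, 61.6 and 66.9 CPM in wild type. In SmoM2 cortex it had 22.7, 19.5 and 23.7 CPM, against 81.4, 59.1 and 63.4 CPM in wild type. Every ShhN IUE and SmoM2 library lay far below the lowest wild-type value, and Tgfa fell by 1.77 in ShhN IUE and by 1.63 in SmoM2 on the log2 scale (edgeR adjusted p = 0.00052 and 0.00046). Hbegf, which also binds EGFR, fell by 0.57 and by 0.68 in ShhN IUE and SmoM2, and Nrg3, a ligand of ERBB4, fell by 0.89 and by 0.76. The log2 ratio of Nrg3 wild-type counts, ShhN IUE table to SmoM2 table, was 0.36. Areg was not in the rows analysed, and Ereg, Epgn and Btc had at most 12 reads in any library and were below the filter.

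Among the ERBB receptors that pair with EGFR, Erbb2, which has no ligand of its own, rose in both groups. It averaged 12.4 CPM in ShhN IUE and 5.32 CPM in wild type, with a log2 fold change of 1.22 ± 0.29 (SE; edgeR adjusted p = 0.015, and 0.0501 without wild-type library 3). In SmoM2 it averaged 10.0 CPM, against 5.37 CPM in wild type, with 0.90 ± 0.22 (SE; edgeR adjusted p = 0.023). The SmoM2 call missed the threshold without any SmoM2 library or without wild-type library 3 (adjusted p = 0.056 to 0.085). Erbb4, the neuregulin receptor, fell by 0.84 in ShhN IUE (edgeR adjusted p = 0.0054). In SmoM2 its log2 fold change was -0.47 ± 0.16 (edgeR adjusted p = 0.072). Erbb3 was scarce, at 0.61 CPM in ShhN IUE and 0.71 CPM in SmoM2, against 1.05 and 1.04 CPM in wild type, and did not pass in either.

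Downstream of the receptor, the 15 signal transducers did not move as a block. In ShhN IUE 3 rose (Gab1, Mapk3 and Shc1) and 5 fell, among them Braf, Nras and Sos1. That is 53.3% of the list, against 33.3% of all genes. In SmoM2 1 rose and 1 fell, 13.3% of the list against 18.9% of all genes: Gab1, a docking protein of receptor kinases, at 0.57 ± 0.10, and the kinase Braf at -0.41 ± 0.09. Among these calls, Shc1 in ShhN IUE missed the threshold without wild-type library 1 or 3 (adjusted p = 0.054 to 0.067). Braf in SmoM2 missed it without any SmoM2 library (0.058 to 0.068). Nras, a RAS GTPase, was higher in SmoM2 than in ShhN IUE by 0.39 ± 0.07 (SE; edgeR adjusted p = 0.0065). Of 12 inhibitors of EGFR and ERK, 0 rose and 4 fell in ShhN IUE, 33.3% of the list and likewise 33.3% of all genes: Spred1, Spry1, Spred3 and Errfi1. In SmoM2 2 rose and 1 fell: the receptor ligase Cbl (1.26 ± 0.22), Lrig1 (0.54 ± 0.11) and Errfi1 (-0.60 ± 0.18). Cbl averaged 153.6 CPM in SmoM2 and 64.3 CPM in wild type, but the same wild-type libraries had 114.1 CPM in the other table, where ShhN IUE had 137.3 CPM and Cbl was not called (0.27, edgeR adjusted p = 0.099). The rise of Cbl in SmoM2 therefore depends on which wild-type counts are used. Spry1, Spred3 and Errfi1 missed the threshold when any of 4 or 5 of the 6 libraries was left out, and Lrig1 without SmoM2 library 1 or 3 (adjusted p = 0.051 to 0.17). Of the 6 genes known to be induced by ERK, 0 rose and 2 fell in ShhN IUE, and 1 rose and 2 fell in SmoM2. That is 33.3% of the list in ShhN IUE, the same as for all genes, and 50.0% in SmoM2, against 18.9% of all genes. Dusp5, an ERK phosphatase, averaged 0.48 CPM in ShhN IUE and 2.22 CPM in wild type, and 0.49 CPM in SmoM2 against 2.21 CPM in wild type. It fell by 2.19 in ShhN IUE and by 2.15 in SmoM2 on the log2 scale (edgeR adjusted p = 0.0037 and 0.0025). Dusp5 is near the floor in both groups and passed the filter through the wild-type libraries, where it is high. Its p-values therefore add no support beyond these levels. Dusp6 fell in both groups, by 0.51 and by 0.47, and Etv1 rose in SmoM2, by 1.22 ± 0.36. Each of these 3 calls missed the threshold in 4 or 5 of 6 fits that left out a library (adjusted p = 0.059 to 0.14), and Etv1 also with DESeq2.

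**Figure D4:**
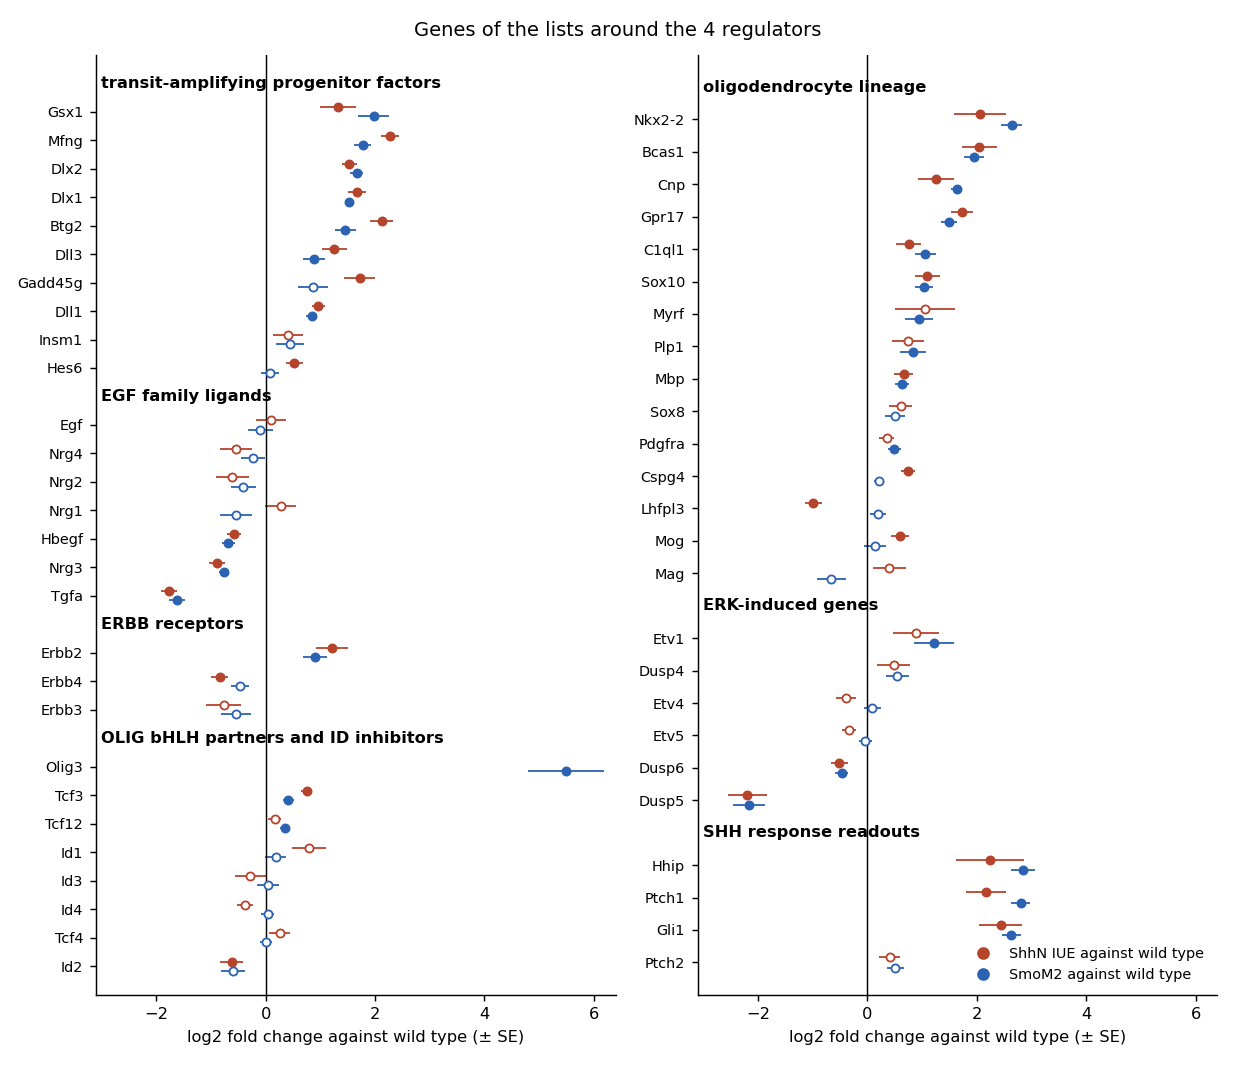
Log2 fold change against wild type, with its SE, of tested genes of 7 lists around the 4 regulators, in ShhN IUE and in SmoM2; filled points passed the threshold of adjusted p 0.05 and open points did not. Transit-amplifying factors lie mostly above 0, Tgfa, Nrg3 and Hbegf lie below 0 in both groups, and Lhfpl3 lies below 0 in ShhN IUE (-0.99) only.

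OLIG factors act as dimers with the E proteins Tcf3, Tcf4 and Tcf12, and ID proteins take those partners away. Of this list 1 of 7 tested genes rose and 1 fell in ShhN IUE, and 3 of 8 rose and 0 fell in SmoM2, Olig3 among the 3. The shares called were 28.6% in ShhN IUE, against 33.3% of all genes, and 37.5% in SmoM2, against 18.9% of all genes. Tcf3 rose by 0.75 ± 0.10 in ShhN IUE (SE; edgeR adjusted p = 0.0017) and by 0.42 ± 0.09 in SmoM2 (edgeR adjusted p = 0.019, and 0.066 to 0.082 without SmoM2 library 1 or 3). For Tcf3 the log2 ratio of wild-type counts, ShhN IUE table to SmoM2 table, was -0.27. Tcf12 rose by 0.35 ± 0.09 in SmoM2, and Id2 fell by 0.62 in ShhN IUE. Both calls missed the threshold in 5 of 6 fits that left out a library (adjusted p = 0.051 to 0.14), and Id2 fell by 0.35 without wild-type library 1. Olig3, the third OLIG gene, which is known from the dorsal spinal cord and hindbrain rather than the cortex, was nearly absent from wild type. It had 28, 18 and 31 reads in SmoM2 libraries, against 0, 0 and 1 in wild type, a ratio per total count of 60.8 (exact 95% interval 10.6 to 2430, counting error only). In ShhN IUE libraries it had 9, 4 and 27 reads, against 0, 0 and 1 in wild type, a ratio of 46.6 (exact 95% interval 7.90 to 1890, counting error only). The filter left it untested in ShhN IUE. In SmoM2 it passed the filter only through the SmoM2 libraries, where it is high. Its edgeR adjusted p there (0.0018) therefore adds no support beyond the counts.

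Genes of the oligodendrocyte lineage, in which Olig1, Olig2 and Egfr are also expressed, mostly rose. Of 15 genes 9 rose and 1 fell in ShhN IUE, with a median log2 fold change of 0.74, and 10 rose and 0 fell in SmoM2, with a median of 0.83. The share called was 66.7% in each, against 33.3% of all genes in ShhN IUE and 18.9% in SmoM2. The rises included genes of later stages: Gpr17, a receptor of differentiating precursors, rose by 1.73 ± 0.20 in ShhN IUE and by 1.49 ± 0.15 in SmoM2. Bcas1 rose by 2.05 ± 0.32 in ShhN IUE and by 1.96 ± 0.18 in SmoM2. Sox10 averaged 33.2 CPM in ShhN IUE and 15.6 CPM in wild type, and 31.8 CPM in SmoM2 and 15.5 CPM in wild type. It rose by 1.09 ± 0.23 and by 1.04 ± 0.17 (SE; edgeR adjusted p = 0.0094 and 0.0053). Nkx2-2, a homeodomain factor of ventral progenitors and of differentiating oligodendrocytes, rose by 2.64 ± 0.19 in SmoM2. In ShhN IUE it rose by 2.06 ± 0.48 (edgeR adjusted p = 0.014, and 0.0507 without wild-type library 3). Pdgfra gave 0.35 in ShhN IUE (edgeR adjusted p = 0.069) and rose by 0.49 ± 0.12 in SmoM2 (edgeR adjusted p = 0.025). That call missed the threshold without any SmoM2 library or without wild-type library 1 or 3 (adjusted p = 0.054 to 0.096). Cnp rose by 1.64 ± 0.10 in SmoM2 and by 1.25 ± 0.33 in ShhN IUE, where it was 0.73 without ShhN IUE library 3 and missed the threshold without any wild-type library (adjusted p = 0.057 to 0.073).

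Between SmoM2 and ShhN IUE, 1 of 12 tested lineage genes was higher and 2 were lower. Of all genes tested in this comparison, 16.5% were called and 8.07% were called lower in SmoM2. Lhfpl3 was higher by 1.16 ± 0.15 (SE; edgeR adjusted p = 0.0011), and against wild type it fell by 0.99 in ShhN IUE while giving 0.19 in SmoM2. Cspg4, the NG2 proteoglycan of precursors, was lower by 0.55 ± 0.12 (edgeR adjusted p = 0.011), and Mag, a myelin glycoprotein, by 1.08 ± 0.28 (edgeR adjusted p = 0.026). Cspg4 missed the threshold without ShhN IUE library 1 or SmoM2 library 2 (adjusted p = 0.054 to 0.060). Mag missed it without ShhN IUE library 1 or 3 or any SmoM2 library (adjusted p = 0.053 to 0.099).

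SHH target genes and other cell types moved in the same libraries. Beside the counts below, 16.1% of all genes were called higher and 17.2% lower in ShhN IUE, and 9.59% and 9.29% in SmoM2. Of 4 SHH readouts 3 rose in each group (Gli1, Ptch1 and Hhip), Hhip in ShhN IUE missing the threshold without any wild-type library (adjusted p = 0.060 to 0.084). Gli1, a direct readout of SHH signalling, had 26.0, 27.7 and 68.9 CPM in ShhN IUE cortex, against 5.65, 9.13 and 7.75 CPM in wild type. In SmoM2 cortex it had 47.3, 42.7 and 50.0 CPM, against 5.63, 9.15 and 7.71 CPM in wild type. ShhN IUE library 3 stood apart, also for the SHH receptor Ptch1 (301.4 CPM, against 133.3 and 114.8 in the other two), and it was the highest ShhN IUE library for Gsx2, Egfr and Olig2. For Olig1 it was the highest in FPKM (61.8, against 59.8 and 54.1), while in CPM libraries 2 and 3 were level (129.1 and 128.7). All 8 cycling-cell genes rose in both groups, with summed levels of 368.6 to 442.6 CPM in ShhN IUE and 120.7 to 154.4 CPM in wild type, and 310.0 to 435.0 CPM in SmoM2 and 119.6 to 153.2 CPM in wild type. Of 8 radial glia genes 6 rose in ShhN IUE and 5 in SmoM2 (Sox2, Slc1a3, Pax6, Vim and Nes). Genes of striatal projection neurons fell, as did most of those of the medial ganglionic eminence. All 11 striatal projection neuron genes fell in both groups, with sums of 34.6 to 47.5 CPM in ShhN IUE and 166.3 to 244.3 CPM in wild type, and 48.9 to 64.7 CPM in SmoM2 and 182.8 to 269.3 CPM in wild type. Of 5 genes of the medial ganglionic eminence 4 fell in each, among them Lhx6, Lhx8 and Maf, with sums of 113.9 to 138.3 CPM in ShhN IUE and 253.8 to 260.3 CPM in wild type, and 114.7 to 133.8 CPM in SmoM2 and 257.8 to 280.2 CPM in wild type. Their defining member Nkx2-1 averaged 2.62 CPM in ShhN IUE and 3.64 CPM in wild type, and 4.02 CPM in SmoM2 and 3.63 CPM in wild type. Nkx2-1 was called in neither comparison (edgeR adjusted p = 0.54 and 0.69). Gsx2 and Olig2 are also expressed in the germinal zones under the striatum, and the part of these shifts in the rises of the 4 genes was not tested. Of 9 genes that mark the cortex, 2 fell in ShhN IUE (Tbr1 and Slc17a7) and 4 in SmoM2 (Tbr1, Neurod2, Emx1 and Emx2), with 0 rises. The share called was 22.2% in ShhN IUE, under the 33.3% of all genes, and 44.4% in SmoM2, against 18.9% of all genes. Slc17a7 in ShhN IUE and Emx1 and Emx2 in SmoM2 missed the threshold in 2 to 5 of 6 fits that left out a library (adjusted p = 0.054 to 0.13). Their sums were 1868 to 2411 CPM in ShhN IUE and 1869 to 2517 CPM in wild type, and 2330 to 2485 CPM in SmoM2 and 2452 to 2860 CPM in wild type. The wild-type sums of the same 3 libraries differ between the tables, in which the deposited counts of part of the genes differ. In microglia, endothelium, choroid plexus and ependyma, and blood, at most 1 gene of a list was called in a comparison with wild type, each of them higher: Aif1, Flt1 and Foxj1 in ShhN IUE, and Cx3cr1, Foxj1 and Alas2 in SmoM2. Of these, Flt1, Cx3cr1 and Alas2 missed the threshold in 4 or 5 of 6 fits that left out a library (adjusted p = 0.060 to 0.16). The choroid plexus and ependyma genes that were tested summed to 23.8 to 42.4 CPM in ShhN IUE and 4.25 to 11.1 CPM in wild type (2 genes), and to 14.95 to 19.9 CPM in SmoM2 and 4.49 to 12.3 CPM in wild type (3 genes), without overlap. Most of this was Foxj1, a factor of ciliated cells, which averaged 28.9 CPM in ShhN IUE and 4.77 CPM in wild type, and 12.7 CPM in SmoM2 and 4.75 CPM in wild type, while the choroid plexus marker Ttr had at most 15 reads in any library. Microglia genes summed to 56.4 to 78.0 CPM in ShhN IUE and 29.5 to 61.2 CPM in wild type, and to 57.5 to 75.2 CPM in SmoM2 and 28.7 to 58.65 CPM in wild type, with median log2 fold changes of 0.66 and 0.69. Endothelial sums overlapped wild type in both groups (160.5 to 329.2 CPM in ShhN IUE and 137.1 to 220.3 CPM in wild type, and 169.1 to 198.3 CPM in SmoM2 and 138.4 to 223.7 CPM in wild type), as did blood sums. The part of these cell types in the rises of the 4 genes was not tested.

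Genes near Gsx2, Egfr and Olig2 on the chromosome were called at shares close to those of all genes in SmoM2. Of 42 genes tested within 500 kb in ShhN IUE, Olig1 included, 9.52% rose and 23.8% fell, against 16.1% and 17.2% of all genes. In SmoM2, 11.6% of 43 rose and 6.98% fell, against 9.59% and 9.29% of all genes. Of 7 of them near Gsx2, 0 rose and 2 fell (Chic2 and Kit) in ShhN IUE, and 1 rose (Pdgfra) and 1 fell (Kit) in SmoM2. Chic2, 30.8 kb from Gsx2, fell by 0.77 in ShhN IUE (edgeR adjusted p = 0.0028) and gave 0.13 in SmoM2. Kit, a receptor kinase gene 497.0 kb away, fell by 0.52 in ShhN IUE and by 0.43 in SmoM2, where adjusted p was 0.059 to 0.14 without any SmoM2 library or without wild-type library 2 or 3. Near Egfr, 3 of 11 genes rose (Eldr, Fbxo48 and Sec61g) and 4 fell (Vstm2a, Cnrip1, Ppp3r1 and Pno1) in ShhN IUE, and 2 rose (Eldr and Fbxo48) and 1 fell (Vstm2a) in SmoM2. Eldr, annotated as a long non-coding RNA downstream of Egfr, begins 17.0 kb past its end. It had 38, 51 and 47 reads in ShhN IUE libraries, against 8, 10 and 9 in wild type, and 62, 54 and 70 in SmoM2 libraries, against 9, 9 and 10 in wild type. Groups did not overlap, and Eldr rose by 2.52 ± 0.34 in ShhN IUE and by 2.34 ± 0.27 in SmoM2 (SE; edgeR adjusted p = 0.0017 and 0.0012), more than Egfr itself. Eldr passed the filter through the ShhN IUE and SmoM2 libraries, where it is high. These p-values therefore add no support beyond the counts. Fbxo48, 33.2 kb from Egfr, rose by 1.22 ± 0.34 in ShhN IUE and by 1.04 ± 0.31 in SmoM2. Those 2 calls missed the threshold in 4 and 5 of 6 fits that left out a library (adjusted p = 0.059 to 0.14). Vstm2a, on the other side of Egfr, fell by 1.60 and by 0.97. Around Olig2, 24 genes were tested in ShhN IUE, where Olig1 was the only one to rise and Synj1, Paxbp1, Tmem50b and Donson fell, and 25 in SmoM2, where Olig1 and the pseudogene H3f3a-ps2 rose and Tmem50b fell. Tmem50b in SmoM2 missed the threshold without SmoM2 library 2 or 3 (adjusted p = 0.061 to 0.066) and in the joint fit. In ShhN IUE, Cnrip1 and Paxbp1 each missed it without any of 5 libraries and Donson without ShhN IUE library 1 (adjusted p = 0.052 to 0.14).

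**Figure D5:**
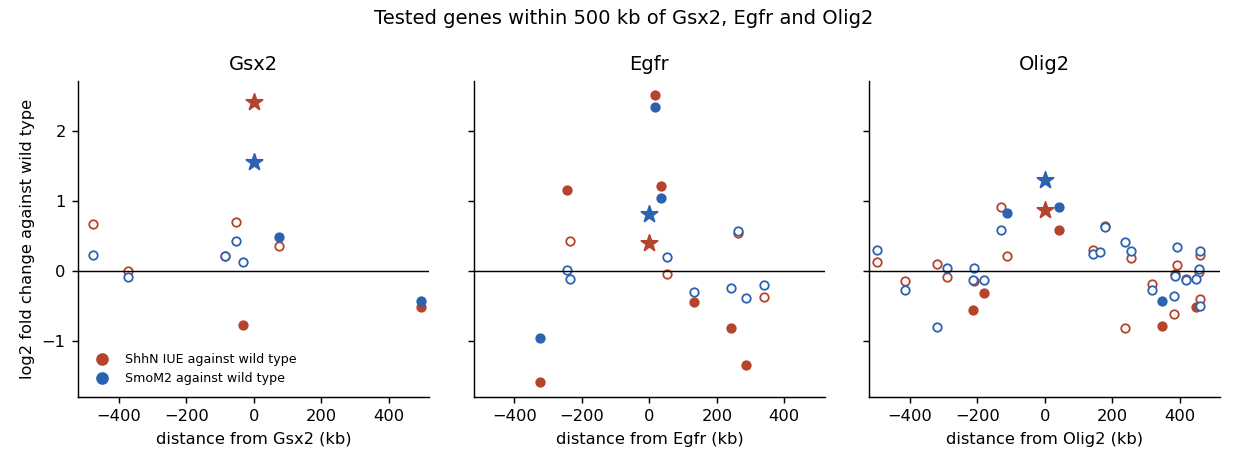
Log2 fold change against wild type of the tested genes within 500 kb of Gsx2, Egfr and Olig2, by distance in kb, in ShhN IUE and in SmoM2; stars are the 3 genes themselves, filled points passed the threshold of adjusted p 0.05 and open points did not. Eldr, at 17.0 kb from Egfr, lies above Egfr in both groups, and Olig1, at 41.1 kb from Olig2, lies close to it.

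Among the 4 genes, Egfr and Olig1 had the smallest difference in log2 level from wild type and Gsx2 stood furthest from the others. Likeness was taken as the root-mean-square difference, over the 9 libraries, of log2 CPM less the wild-type mean. It takes in the size of the shifts and does not show that genes vary together. Over wild-type libraries 1 to 3, Egfr went up (33.6, 41.9 and 44.4 CPM) while Olig1 went down (94.0, 82.3 and 74.0 CPM). The root-mean-square difference was 0.248 between Egfr and Olig1, 0.355 between Olig1 and Olig2, 0.402 between Egfr and Olig2, and 0.894 to 1.224 between Gsx2 and the other three. Of 9278 genes compared, those nearest to Gsx2 were Btg2 (0.179), Eme1, Akna, Kif14 and Hspa2 (0.226), against a median of 1.673 over all genes. The nearest to Egfr were Tmod3 (0.102), Parp4, Ppm1m and Ppfibp2 (0.137), with a median of 0.617. Olig1 was nearest to Cks1b (0.106), Dleu7, Hmg20b, Sox3 and Rtn4rl1 (0.131), with a median of 0.698. Olig2 was nearest to Cdc42ep1 (0.121), Cyp2j9, the neural stem cell factor Sox2, Pcx and Nedd1 (0.185), with a median of 0.958. Among these, Akna, a centrosome gene, lay above wild type by 2.54 in ShhN IUE and 1.67 in SmoM2. It was lower in SmoM2 than in ShhN IUE by 0.89 ± 0.11 (SE). The nearest genes were picked by their values in these same libraries, so a direction shared with the 4 genes restates that choice.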

How the data were processed

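Bulk RNA was measured in 9 libraries of postnatal day 0 mouse cortex, grouped by sample title. The authors deposited 2 tables, each with read counts and FPKM per gene and library, group means of FPKM, and a p-value and q-value of their own comparison, per the file headers. The same 3 wild-type libraries stand in both tables with counts that differ for part of the genes, so each group was tested against the wild type of its own table. Alignment and quantification tools in the submitters' processing notes are StringTie and HISAT2, with edgeR, and the builds are mm10 and GRCm38.p4. Multi-mapping and strand settings are not given in the sources used here.

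Deposited counts were tested in R 4.3.3 with edgeR 4.0.16 (TMM scaling, filterByExpr, quasi-likelihood F test), and p-values were adjusted over all genes tested by Benjamini-Hochberg, with a threshold of 0.05. SE came from the log2 fold change and F. SmoM2 was tested against ShhN IUE in a joint fit over the 16195 genes whose summed wild-type counts, with 5 added, agreed within 0.1 on the log2 scale, taking the mean of the 2 tables for wild type. CPM are counts per 1000000 after TMM scaling. Intervals cover the spread between libraries unless said to cover counting error only. Deposited FPKM were used for levels between genes and, with 0.1 added, in a limma 3.58.1 alternative, where low genes' fold changes are understated. Other alternatives were RLE and upper quartile scaling, no filter, at least 1 CPM in 3 libraries, DESeq2 1.42.0, voom, a block for the replicate number, omission of each library in turn, the joint fit and its tolerance. The fits were tested on simulated data, where the share of false calls lay above the threshold of 0.05 in both comparisons with wild type, most in ShhN IUE, and under it in SmoM2 against ShhN IUE.

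The 4 genes, the 18 lists around them and the tests were chosen with earlier results of these data known. Named genes are the 4, a set always named, up to 4 genes of a list with the smallest adjusted p, the 5 nearest in profile to each and the 4 neighbours with the smallest adjusted p. Others named in small counts were chosen after their values were seen. Some genes of the lists are counted but not reported here by name.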

Additional observations from a re-analysis of the deposited data

Results flagged for a closer look

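Effects of ShhN IUE and SmoM2 on the genes named above were compared in the joint fit, where it tested them, and those that differed between the groups are given here as log2 fold changes of SmoM2 against ShhN IUE (edgeR, adjusted p under 0.05). Lower in SmoM2 were Gsx2 (-0.92), Mfng (-0.54), Btg2 (-0.68), Cspg4 (-0.55), Mag (-1.08) and Akna (-0.89). So were Eme1 (-0.97), the radial glia gene Nes (-0.64), the cortex genes Emx1 (-0.54) and Emx2 (-0.72), Aif1 of microglia (-2.77), Flt1 of endothelium (-1.25), Foxj1 (-1.20) and Sec61g (-1.12), a neighbour of Egfr. In this comparison 1 of 5 tested radial glia genes and 2 of 7 cortex genes were called, with list medians of -0.09 and -0.16. The same held for 1 of 5 microglia, 1 of 4 endothelial, and 1 of 3 choroid plexus and ependyma genes. Medians of those lists were 0.11, -0.19 and 0.10, and 16.5% of all genes were called. Higher in SmoM2 were Nras (0.39), Spred1 (0.33), Lhfpl3 (1.16), Rtn4rl1 (0.39), Tmod3 (0.45) and Alas2 (1.00), and of the neighbours Chic2 (0.87), Vstm2a (0.60), Ppp3r1 (0.56), Pno1 (0.95) and Synj1 (0.41). Calls of Lhfpl3, Chic2, Akna, Nras, Nes, Aif1, Sec61g and Ppp3r1 held in each alternative fit that tested them. Each of the other 17 missed the threshold in at least 1 fit that left out a library (highest adjusted p = 0.15).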

How the results depend on the processing

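Against wild type, the calls of Gsx2, Olig1 and Olig2 in ShhN IUE and of all 4 genes in SmoM2 held in all 15 alternative fits of their comparison. Egfr in ShhN IUE passed in 1 of 15, the joint fit of 9 libraries (0.42, adjusted p = 0.030). SmoM2 against ShhN IUE was less stable, with 1 of the 4 genes called and 0 to 3 called when 1 library was left out. There, Gsx2 ranged over -0.97 to -0.86, Egfr over 0.35 to 0.55, Olig1 over 0.23 to 0.39 and Olig2 over 0.32 to 0.57. Egfr passed beside Gsx2 with no filter (2 genes called, Egfr 0.44), with limma-voom (2 called, Egfr 0.43) and with the replicate block (2 called, Egfr 0.42). Egfr and Olig1 both passed with DESeq2 (3 called, 0.41 and 0.32) and with 6 libraries in the fit (3 called, 0.43 and 0.34). No fold change of the 4 genes changed sign. The replicate block was not used elsewhere because same-numbered libraries did not deviate together (r of -0.32 to 0.28), and it left 3962, 2468 and 1512 genes called, against 5380, 3112 and 2040. Leaving out a library cut the genes called by over 1.5 times in ShhN IUE against wild type without ShhN IUE library 1 (3251), in SmoM2 against wild type without a SmoM2 library (1334 to 1727), and in SmoM2 against ShhN IUE without ShhN IUE library 1 (933) or a SmoM2 library (834 to 1126). The FPKM on GENCODE lengths were chosen after seeing the data. Gsx2 rests on 24 to 41 reads in a wild-type library, which limits its precision, and the cause of these shifts was not tested. Beside the losses without 1 library given above, these calls of named genes ended under another setting. In ShhN IUE against wild type they were Id2, Slc17a7 and Paxbp1 with upper quartile scaling, these 3 and Hhip with limma-voom, Errfi1, Id2, Paxbp1, Slc17a7 and Spred3 with FPKM, and Paxbp1 with no filter and in the joint fit. In SmoM2 against wild type they were Etv1 and Fbxo48 with DESeq2, Errfi1, Etv1 and Alas2 with upper quartile scaling, Errfi1 with limma-voom, Errfi1, Dusp6, Fbxo48 and Alas2 with no filter, Errfi1, Etv1, Kit and Tcf12 with FPKM, and Tmem50b in the joint fit. In SmoM2 against ShhN IUE they were Emx1 with no filter, and Alas2 and Tmod3 with upper quartile scaling. The replicate block ended 14, 4 and 7 calls of named genes in these comparisons. The wild-type counts of Bcas1, Cbl, Donson, H3f3a-ps2, Hes6, Lhx6, Mapk3, Nrg3, Pax6, Spry1 and Tcf3 differ between the tables by more than 0.1 on the log2 scale.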
